A study of Homo sapiens with 18 samples.

Results

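The genes described here come from the long arm of chromosome 7, bands q21 to q22, with genes off the list lying between them, and were picked because neighbours there had higher RNA levels in 2 erlotinib-resistant sublines than in their parental lung cancer line. The list held 59 gene symbols, of which 51 were measured among 11820 genes tested. HCC827 is a human non-small cell lung cancer line whose growth depends on a mutant epidermal growth factor receptor (EGFR), and erlotinib inhibits the kinase of that receptor. ER3 and T15-2 are resistant sublines that arose from HCC827. The 6 groups were ER3 with 1 µM erlotinib, ER3 with the solvent DMSO, T15-2 with erlotinib, T15-2 with DMSO, HCC827 with erlotinib and HCC827 with DMSO. All cells had been starved overnight and were then kept for 12 h with the drug or solvent, and 3 Illumina arrays were run per group. Each subline is a single derived line, so a difference from HCC827 is a property of that line and not of resistance in general, and no source used here states that a group's arrays stem from separate cultures, so p-values cover only the spread between these arrays.

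The stretch from 7q21 to q22 holds genes of unrelated functions that share a place on the chromosome. Among the listed genes are the maternally silenced, paternally expressed pair SGCE and PEG10, the paraoxonases PON2 and PON3, the metalloreductase family members STEAP1 and STEAP2, and NAMPT, the rate-limiting enzyme of NAD salvage. Neighbouring genes are copied together when a chromosome segment is gained or lost, and some neighbours share a promoter region. The arrays measured RNA; DNA content was not measured.

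Of the 59 listed symbols, 56 had a probe on the array and 51 had one above background on at least 3 of the 18 arrays. KRIT1, ANKIB1 and DNAJC2-AS1 had no named probe, and DBF4B, AKAP9, PDAP1, ATXN7L1 and GPR22 had a probe that did not pass. All 51 measured genes are on chromosome 7 in RefSeq. DBF4B, which the list includes, is on chromosome 17 there, whereas the similarly named DBF4 is on chromosome 7 and is not on the list. Of the 51, 44 were above background on every array. A member that passed only through a group in which it was high had to differ, so counts over the 51 describe the measured genes and support nothing about the list.

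Between 15698 and 17869 probes were above background per array, and arrays of one group correlated at 0.991 to 0.997. The epithelial markers fitted the label: all 8 of EPCAM, KRT7, KRT8, KRT18, KRT19, CDH1, CLDN4 and CLDN7 passed, and 7 or 8 were above background on all 3 arrays of each group. Of 6 fibroblast markers 2 passed, with mean levels of 4.72 to 5.04 per group near the floor, and among leukocyte markers CD14 and CD68 passed while PTPRC, CD3E and ITGAM did not. The 3 lung adenocarcinoma markers passed, but the surfactant gene SFTPB averaged 5.17 in ER3 and 4.86 in T15-2, against 7.53 in HCC827, all in DMSO. NAPSA averaged 9.25 in ER3 and 8.70 in T15-2, against 10.38 in HCC827, and NKX2-1 9.39 and 9.80, against 9.87, with DMSO. In T15-2 with DMSO EPCAM (10.39 against 12.11), CDH1 (9.73 against 11.65) and CLDN7 (8.53 against 10.18) were also lower than in HCC827. KRT7 (10.47 against 11.06), KRT8 (10.14 against 10.66) and KRT19 (12.81 against 13.22) were lower by less, while KRT18 and CLDN4 were higher. The part of these shifts in the results below was not tested. In bulk RNA of a line, fewer cells expressing a gene and less RNA per cell cannot be told apart. All levels below are log2 intensities after background correction and normalization, and each change is a log2 difference with its standard error (SE) from a fit over all 18 arrays.

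Promoter windows are shown for 3 genes on which the results below turn, from RefSeq on GRCh38.p14, 5′ to 3′ on the gene's strand, running from 250 bases before to 50 after the start. PUS7 and SLC25A13 are the members that fell most with erlotinib in HCC827, and each window holds the letters CACGTG, in capitals, which are the core of the E-box bound by factors such as MYC and USF. Of the 9 members that fell and have a window, only these 2 hold those letters. The letters were in 8.2% of the members' windows and in 7.26% of all windows, and BRI3, which rose with erlotinib in HCC827, also holds them. Whether they bear on the falls was not tested. In PUS7 (chr7:105522222-105522521, minus strand) they begin at base 279 of the window, and in SLC25A13 (chr7:96322049-96322348, minus strand) at base 97. SLC25A40 (chr7:87876311-87876610, minus strand) runs away from DBF4, and the 232 capitals are the bases that both genes' windows share.
PUS7: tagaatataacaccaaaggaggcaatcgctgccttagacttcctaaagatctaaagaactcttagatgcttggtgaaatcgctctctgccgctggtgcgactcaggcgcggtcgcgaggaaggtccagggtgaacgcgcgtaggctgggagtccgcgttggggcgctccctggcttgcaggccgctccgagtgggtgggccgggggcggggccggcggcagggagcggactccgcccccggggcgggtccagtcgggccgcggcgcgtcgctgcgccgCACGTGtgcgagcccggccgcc
SLC25A13: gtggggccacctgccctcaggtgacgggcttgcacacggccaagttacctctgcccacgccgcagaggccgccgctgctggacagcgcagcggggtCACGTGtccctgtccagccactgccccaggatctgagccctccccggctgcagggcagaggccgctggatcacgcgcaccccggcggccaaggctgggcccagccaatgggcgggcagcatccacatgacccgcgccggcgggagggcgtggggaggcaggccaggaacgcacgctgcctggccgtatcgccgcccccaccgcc
SLC25A40: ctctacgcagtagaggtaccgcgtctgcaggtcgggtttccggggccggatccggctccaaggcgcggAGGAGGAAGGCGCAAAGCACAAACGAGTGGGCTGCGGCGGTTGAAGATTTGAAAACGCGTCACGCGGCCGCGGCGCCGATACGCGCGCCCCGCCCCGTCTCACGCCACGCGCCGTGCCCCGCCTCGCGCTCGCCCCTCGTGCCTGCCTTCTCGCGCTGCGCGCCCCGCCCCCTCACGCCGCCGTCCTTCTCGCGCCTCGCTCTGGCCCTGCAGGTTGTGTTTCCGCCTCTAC

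The level of the members in the sublines is a description, because these differences chose them. With erlotinib the median member was higher by 0.39 in ER3 than in HCC827, and by 0.40 in T15-2, against medians of -0.01 and 0.01 over all genes. With DMSO it was higher by 0.34 in ER3 and by 0.36 in T15-2, against -0.02 and 0.01 over all genes. In linear terms these medians are 1.31-fold, 1.32-fold, 1.26-fold and 1.28-fold. Of the 51 genes, 45 lay above HCC827 in ER3 with erlotinib and 45 in T15-2, against 48.9% and 51.4% of all genes. With DMSO the counts were 42 and 45, against 48.0% and 51.3% of all genes. The difference was modest and spread over most of the list. In all 4 comparisons 36 members lay above HCC827, as did 18.8% of all genes, and 2, DYNC1I1 and STEAP1, lay below it. A second STEAP1 probe lay above HCC827 in T15-2, at 0.06 with erlotinib and 0.24 with DMSO, so its direction there is uncertain.

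Counted at an adjusted p below 0.05, 32 members were higher and 2 lower in ER3 with erlotinib, where 21.6% of all genes were higher and 23% lower. In T15-2 with erlotinib 30 were higher and 1 lower (21.9% and 20.7% of all genes). With DMSO 26 were higher and 4 lower in ER3 (16.0% and 19% of all genes), and 29 were higher and 1 lower in T15-2 (15.9% and 16.3%). The 15 counted as higher in all 4 were ARMC10, ARPC1A, BET1, CLDN12, COG5, CPSF4, DMTF1, GATAD1, GNAI1, NAMPT, PMPCB, PTPN12, PUS7, RBM48 and RINT1, and 3.82% of all genes met the same criterion. Each gene was counted by its brightest probe, and a second GNAI1 probe lay at only 0.04 in ER3 with DMSO. Another 10 were counted as higher in none: DYNC1I1, FZD1, LMTK2, NAPEPLD, PEG10, PHTF2, PIK3CG, PON2, STEAP1 and STEAP2. The share of all genes counted as higher in none was not computed. The probes used for PHTF2, STEAP2 and PIK3CG were above background on only 4, 6 and 3 arrays, so a difference in these genes could be missed.

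**Figure D1:**
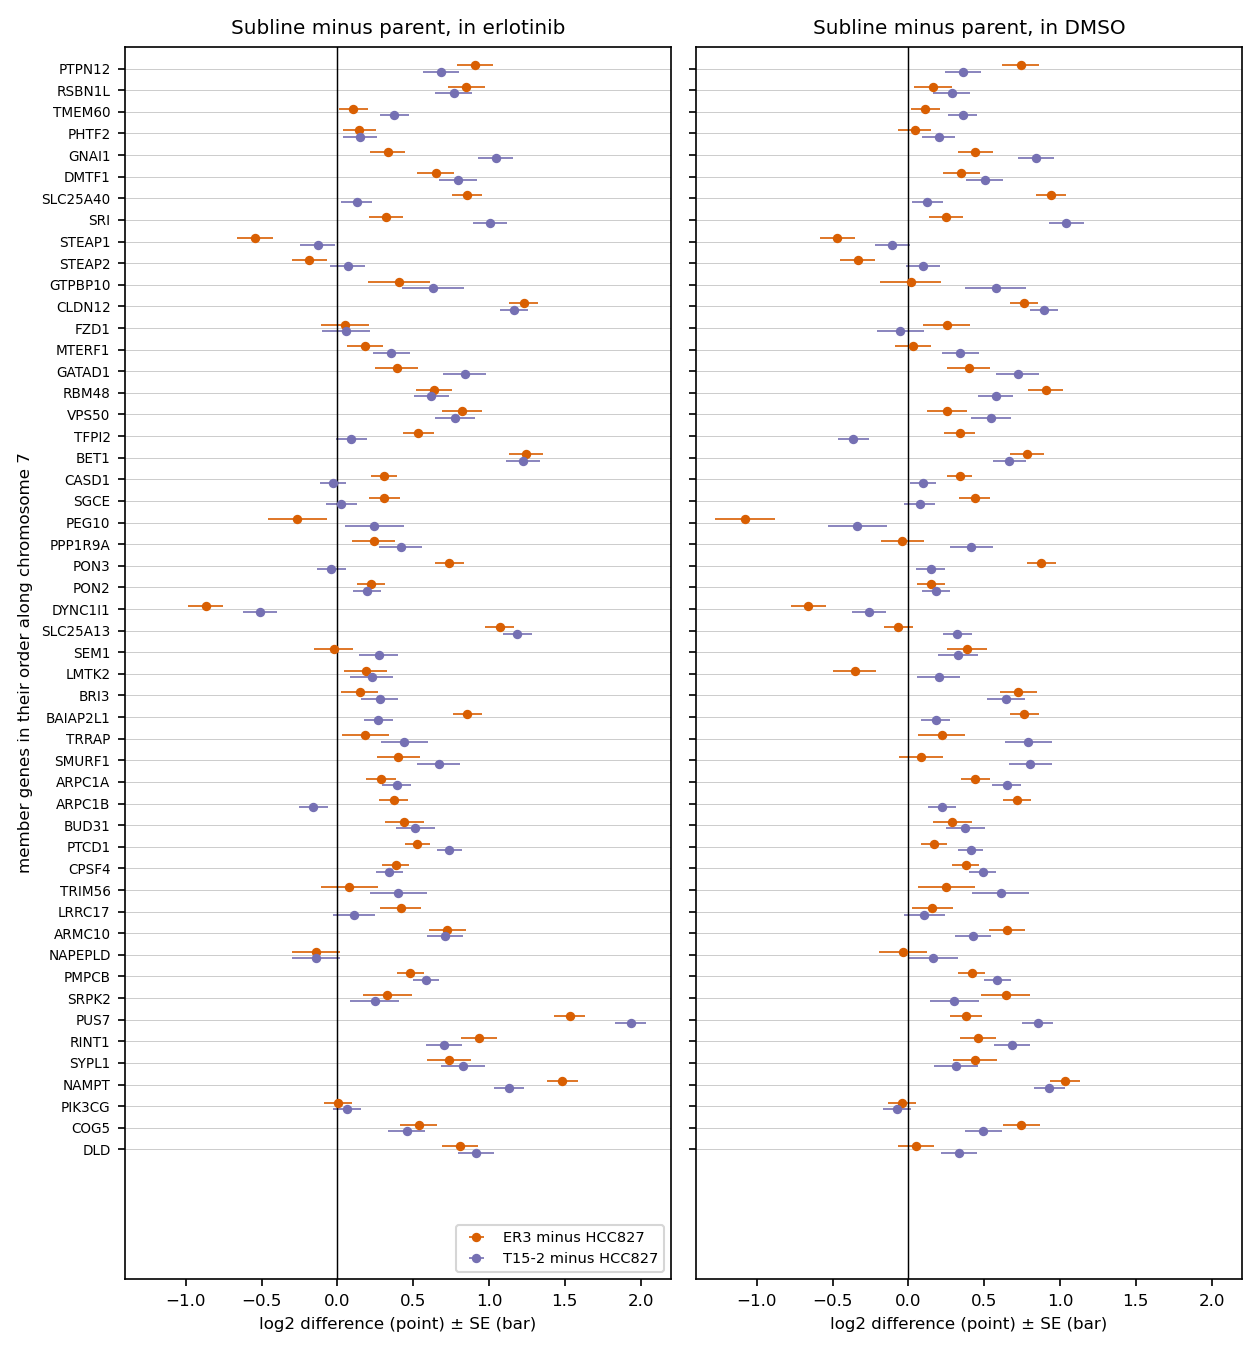
Log2 difference of each measured member between a subline and HCC827 (points) with its SE (bars), on arrays with erlotinib (left) and DMSO (right), from 3 arrays per group; genes run down the axis in their order along chromosome 7. Most points lie to the right of 0, PUS7 with erlotinib reaches 1.53 in ER3 and 1.93 in T15-2, and PEG10 with DMSO lies at -1.08 in ER3.

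The members that lay highest over the 4 comparisons were PUS7, NAMPT, CLDN12, BET1, RINT1 and RBM48, which serve in RNA modification, NAD supply, cell junctions, vesicle transport and splicing. NAMPT lay at 9.51, 9.21 and 9.12 in ER3 with erlotinib and 8.93, 8.95 and 8.90 in T15-2 with erlotinib, against 7.83, 7.75 and 7.80 in HCC827 with erlotinib. With DMSO its levels were 9.04, 9.21 and 9.15 in ER3 and 8.98, 9.12 and 9.00 in T15-2, against 8.05, 8.26 and 7.99 in HCC827. All 12 subline arrays lay above all 6 HCC827 arrays, and the difference with DMSO was 1.03 ± 0.10 in ER3 and 0.93 ± 0.10 in T15-2, about 2.05-fold and 1.90-fold.

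CLDN12, a claudin of tight junctions, lay at 9.42, 9.41 and 9.31 in ER3 and 9.38, 9.34 and 9.23 in T15-2 with erlotinib, against 8.15, 8.03 and 8.29 in HCC827. With DMSO it had 9.17, 9.24 and 9.18 in ER3 and 9.20, 9.41 and 9.38 in T15-2, against 8.41, 8.56 and 8.33 in HCC827. The sublines did not overlap with HCC827 in either condition, and they lay close to each other, with T15-2 minus ER3 at 0.13 ± 0.09 with DMSO and -0.06 ± 0.09 with erlotinib.

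BET1, a SNARE protein of transport between the endoplasmic reticulum and the Golgi, lay at 8.59, 8.82 and 8.41 in ER3 and 8.46, 8.52 and 8.5 in T15-2 with DMSO, against 7.81, 7.77 and 7.89 in HCC827. RINT1, which tethers vesicles between the same compartments, had 6.47, 6.46 and 6.53 in ER3 and 6.71, 6.54 and 6.87 in T15-2, against 5.94, 6.13 and 6.01 in HCC827. RBM48, a component of the minor spliceosome, had 7.02, 7.43 and 6.99 in ER3 and 6.97, 6.66 and 6.81 in T15-2, against 6.29, 6.13 and 6.31 in HCC827. In each of these 3 genes every subline array with DMSO was above every HCC827 array with DMSO, and the same held with erlotinib.

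The lowest members differed in kind. PEG10, a paternally expressed gene derived from a retrotransposon, lay at 8.22, 8.99 and 8.18 in ER3 and 9.06, 9.44 and 9.12 in T15-2 with DMSO, against 9.73, 9.37 and 9.53 in HCC827. Its ER3 arrays lay below the HCC827 arrays with DMSO (-1.08 ± 0.19), while T15-2 overlapped with HCC827. With erlotinib PEG10 was at -0.27 ± 0.19 in ER3, overlapping with HCC827, and at 0.24 ± 0.19 in T15-2, above it without overlap. Its other probes lay at -0.45 and -0.22 in ER3 and at 0.04 and 0.04 in T15-2 with erlotinib, so the T15-2 difference rests on 1 probe. SGCE, the oppositely oriented imprinted neighbour that encodes epsilon-sarcoglycan, had 10.26, 10.44 and 10.11 in ER3 and 9.92, 9.91 and 9.89 in T15-2, against 9.90, 9.75 and 9.84 in HCC827. In ER3 with DMSO SGCE was at 0.44 ± 0.10, opposite in sign to PEG10, and with erlotinib at 0.31 ± 0.10.

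STEAP1 lay at 7.04, 7.37 and 7.11 in ER3 and 7.42, 7.61 and 7.58 in T15-2 with DMSO, against 7.66, 7.64 and 7.62 in HCC827. DYNC1I1, an intermediate chain of cytoplasmic dynein, was not above background on any ER3 array, and was at least 1.24-fold lower there than in HCC827 with DMSO and at least 1.51-fold lower with erlotinib. These bounds set the mean of the HCC827 arrays against the lowest signal above background on each ER3 array or the gene's own, whichever was higher. Its levels in T15-2 with DMSO, 4.92, 4.98 and 4.97, lay below the 5.06, 5.41 and 5.18 of HCC827. STEAP2 in ER3 and TFPI2 in T15-2 were likewise not above background on any array with DMSO, at least 1.08-fold and at least 1.10-fold lower than in HCC827.

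Grouped by function, 6 of 7 trafficking and Golgi genes were counted as higher in ER3 with erlotinib and 5 of 7 in T15-2, with medians of 0.74 and 0.71; with DMSO it was 5 and 4, with medians of 0.44 and 0.49. DYNC1I1 was counted as higher in none and as lower in ER3 in both conditions and in T15-2 with erlotinib. CASD1 was not counted as higher in T15-2 in either condition, nor SYPL1 in T15-2 with DMSO or VPS50 in ER3 with DMSO. Of 6 RNA processing and translation genes, 4 were counted as higher in ER3 and 5 in T15-2, in either condition. Of the 6 mitochondrial genes 5 were counted as higher in each subline with erlotinib, and 2 in ER3 and 5 in T15-2 with DMSO. Of 6 genes of metal, lipid and NAD metabolism, no more than 2 were counted as higher in any of the 4 comparisons, NAMPT and PON3 in ER3. The same background percentages apply to these counts, and no list was tested.

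The sublines were not alike gene by gene. With DMSO 16 members were counted as higher in both, 10 in ER3 alone and 13 in T15-2 alone, and 6.79% of all genes were counted as higher in both. The share of all genes counted in only ER3 or only T15-2 was not computed. Being counted in only one subline is not itself a difference between the sublines. T15-2 minus ER3 had a median of 0.06 with erlotinib and 0.15 with DMSO over the members, against 0.02 in each condition over all genes. Counted the same way in both conditions, 5 members were higher in T15-2 than in ER3 (DYNC1I1, GNAI1, PUS7, SRI and STEAP1) and 7 were lower (ARPC1B, BAIAP2L1, CASD1, PON3, SGCE, SLC25A40 and TFPI2). For T15-2 against ER3 with erlotinib 15.8% of all genes were counted as higher and 13.5% as lower, and with DMSO 17.8% and 15.5%. These shares are for single conditions. The share of all genes counted the same way in both was not computed, so the 5 and 7 members have no matching background.

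Some of these lay beside each other or belong to 1 family. SLC25A40, a mitochondrial carrier, had levels of 6.91, 7.02 and 6.87 in T15-2 with DMSO, against 7.79, 7.85 and 7.60 in ER3. HCC827 with DMSO had 6.67, 6.96 and 6.79, which overlapped with T15-2 and not with ER3. The ER3 difference from HCC827 was 0.94 ± 0.10 with DMSO. DBF4, the activator of the kinase CDC7 whose window shares the 232 bases shown above, was above background on 1 of 3 ER3 arrays and 0 of 3 HCC827 arrays with DMSO, so its own difference cannot be read.

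PON3, a paraoxonase, had levels of 7.15, 7.20 and 7.20 in T15-2 with DMSO, against 8.05, 7.76 and 7.93 in ER3, and HCC827 had 7.11, 6.95 and 7.05. Its neighbour and paralog PON2 differed from HCC827 with DMSO by 0.15 ± 0.09 in ER3 and by 0.18 ± 0.09 in T15-2, whereas PON3 differed by 0.88 ± 0.10 in ER3 and by 0.15 ± 0.10 in T15-2. The Arp2/3 complex subunits ARPC1A and ARPC1B, adjacent paralogs that nucleate actin branches with their partners, showed another order. ARPC1A was 0.44 ± 0.10 above HCC827 in ER3 and 0.65 ± 0.10 in T15-2 with DMSO, and ARPC1B was 0.72 ± 0.10 above it in ER3 and 0.22 ± 0.10 in T15-2. The difference between paralogs was not tested, and probes of similar genes may bind each other's transcripts.

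GNAI1, an inhibitory G protein alpha subunit, had levels of 6.07, 6.35 and 6.37 in T15-2 with DMSO, against 5.68, 5.99 and 5.92 in ER3, and HCC827 had 5.34, 5.42 and 5.5. On this probe the 3 lines did not overlap with DMSO, in the order T15-2, ER3, HCC827. A second GNAI1 probe, above background on 9 arrays, lay at 0.04 in ER3 with DMSO and 0.15 with erlotinib. In T15-2 it lay at 0.46 and 0.85, so the size of the ER3 difference is uncertain. SRI, which encodes the calcium-binding protein sorcin, had 8.68, 8.74 and 8.63 in T15-2 with DMSO, against 7.86, 7.82 and 7.98 in ER3, and HCC827 had 7.68, 7.56 and 7.68. For SRI in ER3 the probes of the gene did not point the same way, at -0.31 and 0.25 against HCC827 with DMSO, so its direction in ER3 is uncertain.

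The higher level was not limited to the listed genes or to their stretch. Ordered along the chromosome, the outermost measured members were PTPN12 and DLD, and 89 measured genes between them were not on the list. With erlotinib the median difference of these 89 from HCC827 was 0.26 in ER3 and 0.32 in T15-2, and with DMSO it was 0.22 and 0.37. Of the 89, 41 were counted as higher and 5 as lower in ER3 with erlotinib, and 49 as higher and 2 as lower in T15-2 with DMSO. The 30 measured genes next after DLD had medians of 0.49 in ER3 and 0.55 in T15-2 with erlotinib, above those of the members, and 0.26 and 0.34 with DMSO. The 30 next before PTPN12 had medians of 0.21 and 0.22 with erlotinib and 0.43 and 0.39 with DMSO. All 166 measured genes after DLD had medians of 0.20 and 0.35 with erlotinib and of 0.23 and 0.33 with DMSO.

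Among the 23 chromosomes compared, the median over all 554 measured genes of chromosome 7 ranked 1 in T15-2 and 2 in ER3 in both conditions, at 0.28 and 0.24 with erlotinib and 0.28 and 0.18 with DMSO. In ER3 chromosome 6 ranked above it, at 0.25 with erlotinib and 0.28 with DMSO. A running median over 31 genes stayed above 0 at every position between PTPN12 and DLD in all 4 comparisons. In ER3 with erlotinib it ran between 0.15 and 0.61, the highest centred on NAMPT, and in T15-2 between 0.24 and 0.65, the highest centred on SYPL1. With DMSO it ran between 0.08 and 0.55 in ER3 and between 0.11 and 0.54 in T15-2.

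**Figure D2:**
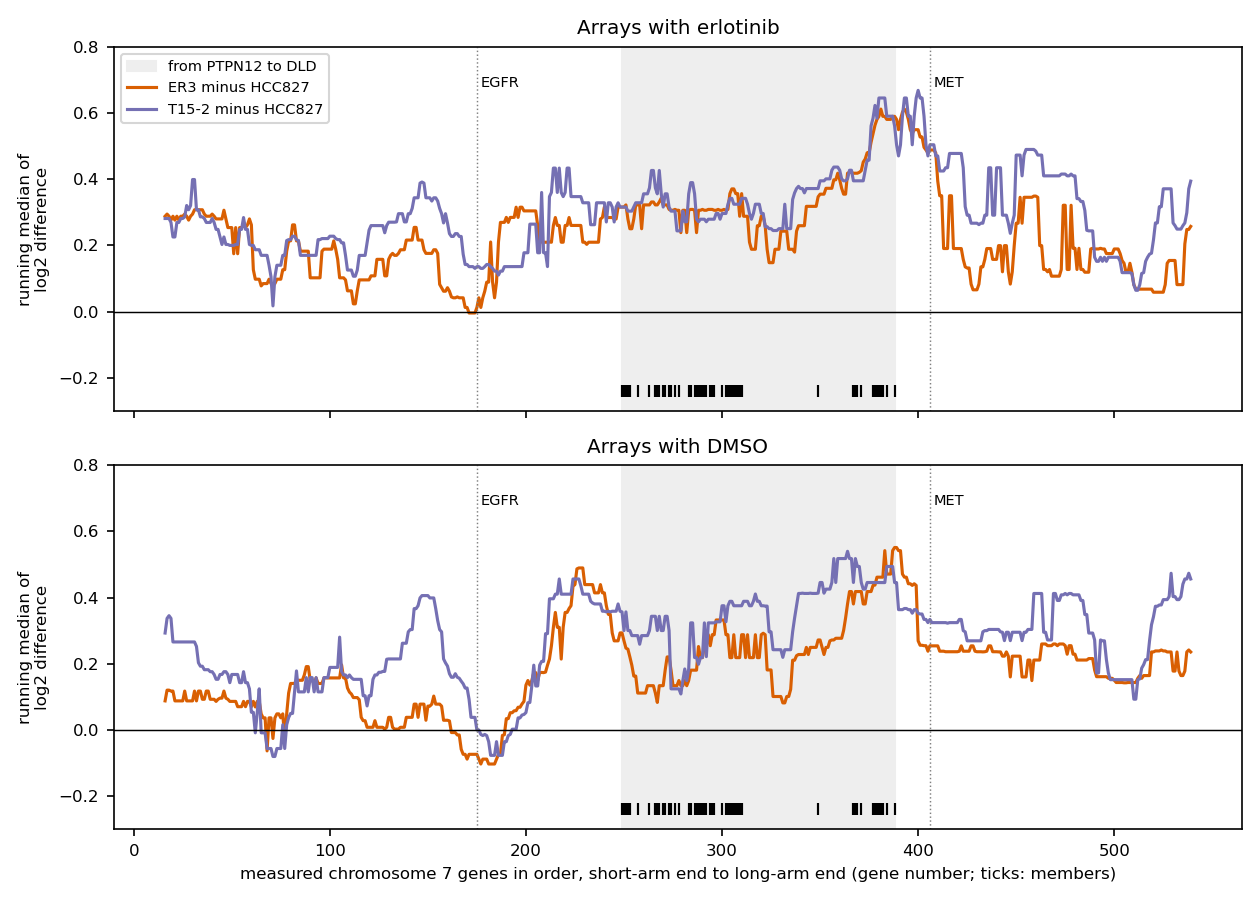
Running median over 31 genes of the log2 difference between each subline and HCC827 along the 554 measured chromosome 7 genes in order, with erlotinib (upper) and DMSO (lower); the grey band runs from PTPN12 to DLD, ticks mark the members and dotted lines EGFR and MET. The lines stay above 0 through the band and remain above it beyond DLD, where T15-2 with erlotinib reaches 0.67.

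Genes in the band that were not on the list varied more widely than the median. ABCB1, the drug efflux pump P-glycoprotein, was 2.35 above HCC827 in ER3 and 2.17 in T15-2 with erlotinib, and 2.02 and 2.01 with DMSO. CDK6, a cell cycle kinase, was at 0.87 and 1.23 with erlotinib and at 0.88 and 1.33 with DMSO. SAMD9, an antiviral and growth-restraining gene next to CDK6, was lower, at -0.22 and -1.36 with erlotinib and -0.77 and -1.64 with DMSO. Of 25 genes named for the stretch and measured between its ends, 14 were counted as higher and 1 as lower in ER3 with erlotinib and 15 and 2 in T15-2, and with DMSO 15 and 2 in ER3 and 19 and 2 in T15-2. The same shares of all genes apply to these counts, and the 25 were named with earlier results of these data known. Elsewhere on the chromosome EGFR was at 0.29 in ER3 and -0.17 in T15-2 with erlotinib, and at 0.18 and -0.51 with DMSO. The receptor kinase gene MET was at 2.44 in ER3 and 2.41 in T15-2 with erlotinib and at 0.08 and 0.32 with DMSO, and in HCC827 it fell by 1.71 ± 0.23 with erlotinib (adjusted p = 6.6e-06).

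**Figure D3:**
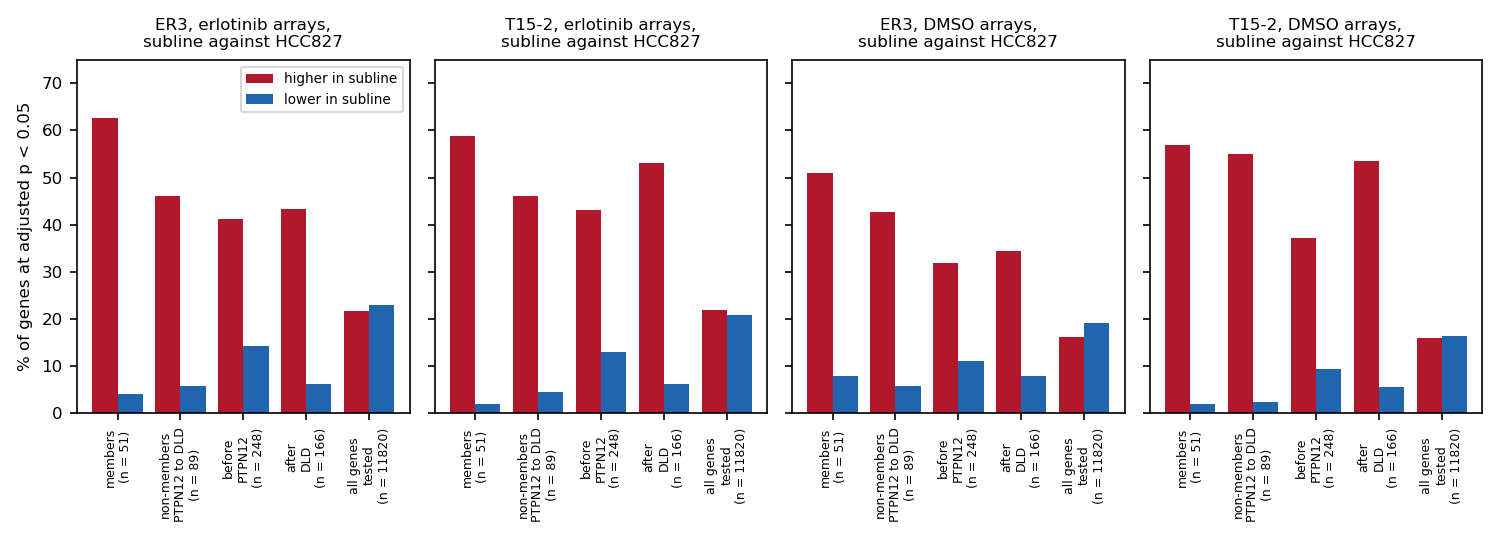
Share of genes at an adjusted p below 0.05 that were higher (red) or lower (blue) in a subline than in HCC827, for the 51 members, the 89 other genes between PTPN12 and DLD, the genes before and after, and all 11820 genes tested. The members' share of higher genes is 62.7% in ER3 and 58.8% in T15-2 with erlotinib and 51.0% and 56.9% with DMSO, and that of all genes lies between 15.9% and 21.9%. The members were chosen on these same differences, so their share is a description and not a test.

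The erlotinib response within a line was not itself part of how the members were chosen, but it is not free of that choice, because the differences from HCC827 with erlotinib that were used rest on the same arrays. SLC25A13, for example, lay at 1.07 in ER3 against HCC827 with erlotinib and at -0.07 with DMSO. The tests below therefore concern single genes within a fit over all genes, and nothing is read from the number of members called. In HCC827 the drug changed 14 of the 51 (27.5%), 4 higher and 10 lower, against 37.7% of all genes, 19.2% higher and 18.5% lower. The median change of the members was -0.01, against 0.01 over all genes. In ER3 1 member was called, as higher, against 3.76% of all genes (2.01% higher and 1.74% lower). In T15-2 3 were called, 2 higher and 1 lower, against 8.43% of all genes (4.43% higher and 4.0% lower). The genes that fell in HCC827 were BET1, CLDN12, DLD, NAMPT, PEG10, PTCD1, PUS7, RSBN1L, SLC25A13 and TFPI2, and those that rose were BRI3, GATAD1, PON3 and SGCE. All adjusted p-values here are limma's after Benjamini-Hochberg correction over the 11820 genes, and the count for HCC827 was 8 without HCC827 erlotinib replicate 2 and 9 without HCC827 DMSO replicate 2.

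PUS7 encodes a pseudouridine synthase that modifies transfer and messenger RNA. In ER3 its levels were 8.99, 8.99 and 8.94 with erlotinib, against 9.08, 9.29 and 9.10 with DMSO. In T15-2 they were 9.47, 9.37 and 9.28 with erlotinib, against 9.42, 9.72 and 9.75 with DMSO, and in HCC827 7.50, 7.26 and 7.55 with erlotinib, against 8.82, 8.80 and 8.71 with DMSO. The HCC827 arrays with erlotinib lay more than 1 unit below every other array. PUS7 fell by 1.34 ± 0.10 on the log2 scale in HCC827, 2.53-fold (adjusted p = 6.8e-09). The response of ER3 minus that of HCC827 was 1.15 ± 0.15 (adjusted p = 1.7e-05) and that of T15-2 minus HCC827 1.08 ± 0.15 (adjusted p = 5.6e-05).

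SLC25A13 encodes citrin, the mitochondrial carrier that exchanges aspartate for glutamate. In ER3 its levels were 8.61, 8.33 and 8.33 with erlotinib, against 8.39, 8.41 and 8.27 with DMSO. In T15-2 they were 8.54, 8.60 and 8.48 with erlotinib, against 8.72, 8.87 and 8.64 with DMSO, and in HCC827 7.39, 7.43 and 7.24 with erlotinib, against 8.51, 8.37 and 8.38 with DMSO. All 3 HCC827 arrays with erlotinib lay below those of every other group, and with DMSO the ER3 and HCC827 arrays overlapped. SLC25A13 fell by 1.07 ± 0.10 in HCC827 (adjusted p = 6.0e-08). The response differed from that of HCC827 by 1.14 ± 0.14 in ER3 (adjusted p = 1.0e-05) and by 0.86 ± 0.14 in T15-2 (adjusted p = 0.00033).

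DLD, the E3 subunit shared by the pyruvate and 2-oxoglutarate dehydrogenase complexes, had levels of 8.79, 8.51 and 8.75 with erlotinib in ER3, against 8.26, 8.79 and 8.27 with DMSO. In T15-2 it had 8.73, 8.90 and 8.73 with erlotinib, against 8.70, 8.66 and 8.81 with DMSO, and in HCC827 7.88, 7.86 and 7.87 with erlotinib, against 8.35, 8.37 and 8.45 with DMSO. The HCC827 groups did not overlap, and those of each subline did. DLD fell by 0.52 ± 0.12 in HCC827 (adjusted p = 0.0016). The response difference was 0.76 ± 0.17 in ER3 (adjusted p = 0.0030) and 0.58 ± 0.17 in T15-2 (adjusted p = 0.026); the T15-2 call was lost without HCC827 DMSO replicate 3 (adjusted p = 0.058), HCC827 erlotinib replicate 2 (0.055), T15-2 DMSO replicate 1 (0.056) or 2 (0.055), or T15-2 erlotinib replicate 2 (0.077).

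BET1 in HCC827 had levels of 7.34, 7.32 and 7.53 with erlotinib, against 7.81, 7.77 and 7.89 with DMSO, and fell by 0.43 ± 0.11 (adjusted p = 0.0050). RSBN1L, a nuclear protein, had 6.36, 6.25 and 6.49 with erlotinib in HCC827, against 6.74, 6.86 and 6.74 with DMSO, and fell by 0.42 ± 0.12 (adjusted p = 0.011; 0.056 without HCC827 erlotinib replicate 2). PEG10 had 8.79, 8.55 and 8.96 with erlotinib in HCC827, against 9.73, 9.37 and 9.53 with DMSO, and fell by 0.78 ± 0.19 (adjusted p = 0.0036). In each of the 3 genes the HCC827 groups did not overlap. PTCD1, a mitochondrial RNA-binding protein, fell by 0.29 ± 0.08 (adjusted p = 0.0097).

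The remaining falls in HCC827 were each lost without at least 1 array. NAMPT fell by 0.31 ± 0.10 and was lost without HCC827 DMSO replicate 2 (adjusted p = 0.11) or erlotinib replicate 2 (0.065), and with the mean of its probes (0.062). CLDN12 fell by 0.28 ± 0.09 and was lost without DMSO replicate 2 (0.11) or erlotinib replicate 1 (0.053) or 2 (0.11). TFPI2, a serine protease inhibitor of the matrix, fell by 0.27 ± 0.10, was above background on 1 of 3 arrays with erlotinib, and was lost without DMSO replicate 1 (0.069), 2 (0.080) or 3 (0.12) or erlotinib replicate 2 (0.17) or 3 (0.097). Its change was -0.18 (0.070) without background correction and -0.19 (0.16) with median scaling over the kept probes.

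Of the 4 that rose, BRI3, a small membrane protein, had levels of 10.33, 10.55 and 10.40 with erlotinib in HCC827, against 9.98, 10.01 and 10.07 with DMSO, a change of 0.41 ± 0.12 (adjusted p = 0.013; 0.063 without HCC827 erlotinib replicate 2). GATAD1, a chromatin-binding zinc finger protein, changed by 0.40 ± 0.14 with overlapping groups and was lost without HCC827 DMSO replicate 1 (0.092) or 2 (0.15) or erlotinib replicate 1 (0.11) or 2 (0.099), and with median scaling over all probes (0.19). SGCE changed by 0.31 ± 0.10 and was lost without DMSO replicate 2 (0.079) or erlotinib replicate 1 (0.085) or 3 (0.055). PON3 changed by 0.27 ± 0.10 and was lost without DMSO replicate 2 (0.12) or 3 (0.064) or erlotinib replicate 1 (0.078) or 2 (0.10). BRI3, PON3 and SGCE were not called with either median scaling, at 0.13, 0.11 and 0.08 when scaled over all probes and 0.24, 0.21 and 0.18 over the kept ones, where the median of all genes was -0.10 and 0.01, against 0.01 with quantile normalization.

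**Figure D4:**
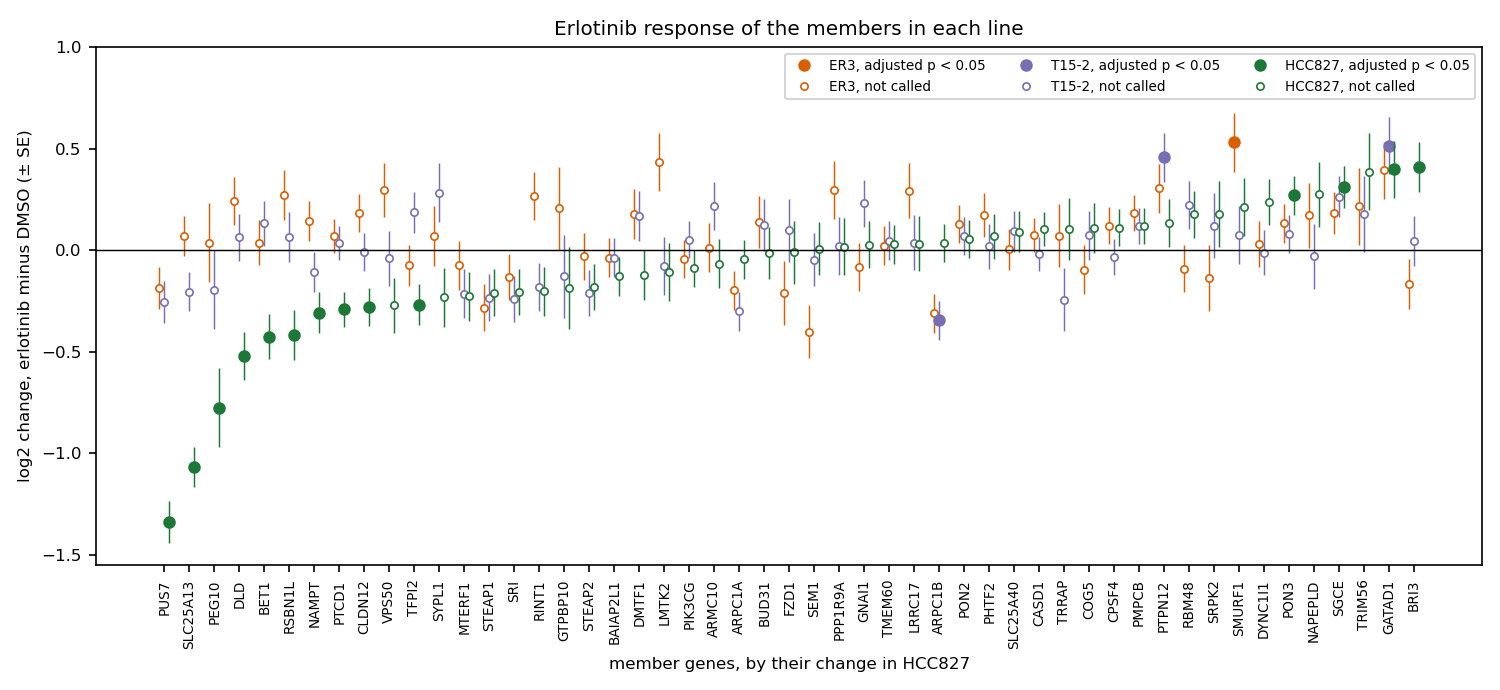
Log2 change with erlotinib against DMSO of each member (points, filled where called at an adjusted p below 0.05) with its SE, in ER3, T15-2 and HCC827, ordered by the change in HCC827. PUS7 (-1.34), SLC25A13 (-1.07), PEG10 (-0.78) and DLD (-0.52) lie lowest in HCC827, where 14 points are filled, against 1 in ER3 and 3 in T15-2.

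Few members changed with erlotinib in the sublines. SMURF1, a ubiquitin ligase of the BMP pathway, had levels of 5.65, 5.85 and 5.73 with erlotinib in ER3, against 5.52, 5.11 and 5.01 with DMSO, and rose by 0.53 ± 0.14 (adjusted p = 0.045). The call was lost without ER3 DMSO replicate 2 (adjusted p = 0.087) or 3 (0.16) or erlotinib replicate 1 (0.093), 2 (0.11) or 3 (0.086), and with the authors' processed values the change was 0.29 (adjusted p = 0.062). At an unadjusted p under 0.05, 8 members were higher and 3 lower in ER3, against 10.2% and 9.32% of all genes.

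In T15-2 GATAD1 had levels of 7.39, 7.08 and 7.16 with erlotinib, against 6.41, 6.96 and 6.71 with DMSO, and rose by 0.51 ± 0.14 (adjusted p = 0.029). It was lost without T15-2 DMSO replicate 1 (0.16) or 3 (0.070) or erlotinib replicate 1 (0.14). PTPN12, a phosphatase that acts on focal adhesion proteins and receptor kinases, had 9.89, 9.62 and 9.59 with erlotinib, against 9.29, 9.15 and 9.30 with DMSO, and rose by 0.46 ± 0.12 (adjusted p = 0.023). It was lost without T15-2 DMSO replicate 1 (0.055) or 2 (0.088) or erlotinib replicate 1 (0.13), and with the mean of its probes (0.055). ARPC1B had 9.24, 9.15 and 9.38 with erlotinib, against 9.75, 9.48 and 9.58 with DMSO, and fell by 0.35 ± 0.10 (adjusted p = 0.029). It was lost without T15-2 DMSO replicate 1 (0.15) or 3 (0.065) or erlotinib replicate 1 (0.097) or 2 (0.14), and with scaling to the median of all probes the change was -0.17 (adjusted p = 0.51). The count in T15-2 was 0 without T15-2 erlotinib replicate 1, 1 without T15-2 DMSO replicate 1 and 5 without T15-2 erlotinib replicate 3. GATAD1 was called in HCC827 as well, and its response in T15-2 minus that in HCC827 was 0.12.

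The difference of response between a subline and HCC827 equals the line difference with erlotinib minus that with DMSO, and both of these were read when the members were chosen. Its p-values come from the fit over all genes and concern single genes, and the counts are a description. Between ER3 and HCC827 the difference was called for 11 members (21.6%, against 22% of all genes), 10 in the positive direction (19.6%, against 11.6% of all genes) and BRI3 in the negative (1.96%, against 10.4%). Between T15-2 and HCC827 it was called for 5, all positive (9.8%, against 7.17% of all genes positive, 5.9% negative and 13.1% in either direction). The 2 comparisons share the HCC827 arrays, so BET1, DLD, PUS7 and SLC25A13 standing in both is not independent evidence. Between T15-2 and ER3 limma called 0 of the 51 and 0.0338% of all genes. At an unadjusted p under 0.05 it gave 3 of the 51 lower in T15-2 (LMTK2, RINT1 and SMURF1), against 4.0% of all genes, and 0 higher, against 4.01%. No member was called under any of 24 settings, which include the main fit and leaving out DBF4B, which was not measured.

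RSBN1L had a response of 0.27 ± 0.12 in ER3, which was not called, and its difference from HCC827 was 0.69 ± 0.17 (adjusted p = 0.0083). CLDN12 differed by 0.46 ± 0.13 (adjusted p = 0.016), with a response of 0.18 ± 0.09 in ER3. These calls, and those of PUS7, SLC25A13 and DLD in ER3, were kept without any single array. In ER3 the count was 6 without HCC827 erlotinib replicate 2, ER3 DMSO replicate 1 or ER3 erlotinib replicate 1, and 7 without HCC827 DMSO replicate 1 or ER3 DMSO replicate 3. In T15-2 it was 2 without HCC827 DMSO replicate 3, HCC827 erlotinib replicate 2 or T15-2 DMSO replicate 1, and 9 without T15-2 erlotinib replicate 3. PUS7 and SLC25A13 were called in T15-2 in every fit.

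The response differences of BET1, PEG10, PTCD1, NAMPT, VPS50 and BRI3 in ER3, and of BET1 and TFPI2 in T15-2, were each lost without at least 1 array. For BET1 in ER3 the adjusted p was 0.042, and 0.053 to 0.12 without any 1 of the 3 HCC827 DMSO arrays, HCC827 erlotinib replicate 1 or 2, ER3 DMSO replicate 1 or 3, or ER3 erlotinib replicate 1 or 3. BRI3, with levels of 10.21, 10.73 and 10.79 with erlotinib in ER3, against 10.82, 10.79 and 10.62 with DMSO, differed in response from HCC827 by -0.58 ± 0.17 (adjusted p = 0.023), and was lost without HCC827 erlotinib replicate 2 (0.063), ER3 DMSO replicate 1 (0.056) or ER3 erlotinib replicate 1 (0.053). With median scaling over all probes the BRI3 difference was -0.15 (adjusted p = 0.67), and over the kept probes -0.44 (0.077). TFPI2 in T15-2 differed by 0.45 ± 0.14 (adjusted p = 0.043), with an adjusted p of 0.066 to 0.11 without any 1 of the HCC827 DMSO arrays, HCC827 erlotinib replicate 2 or 3, T15-2 DMSO replicate 1 or 2, or T15-2 erlotinib replicate 1 or 2. With median scaling over the kept probes the TFPI2 difference was 0.23 (adjusted p = 0.30), over all probes 0.48 (0.079), and with the trend and robust settings its adjusted p was 0.066.

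The other calls that depended on single arrays were these. In ER3, PEG10 had an adjusted p of 0.060 to 0.11 without HCC827 DMSO replicate 1 or 3, HCC827 erlotinib replicate 1 or 2, ER3 DMSO replicate 1 or 3, or ER3 erlotinib replicate 2 or 3. PTCD1 had 0.061 to 0.082 without HCC827 DMSO replicate 1 or 3, HCC827 erlotinib replicate 1 or 3, ER3 DMSO replicate 1 or 3, or ER3 erlotinib replicate 1. NAMPT had 0.063 to 0.079 without HCC827 DMSO replicate 2, HCC827 erlotinib replicate 2, ER3 DMSO replicate 1 or ER3 erlotinib replicate 1. VPS50, a subunit of an endosomal recycling complex, had 0.054 to 0.11 without HCC827 DMSO replicate 1 or 2, HCC827 erlotinib replicate 2 or 3, ER3 DMSO replicate 2 or 3, or ER3 erlotinib replicate 1 or 2. With the mean of a gene's probes the ER3 difference was 0.17 for VPS50 (adjusted p = 0.50) and 0.23 for NAMPT (0.21). In T15-2, BET1 had 0.052 to 0.083 without HCC827 DMSO replicate 3, HCC827 erlotinib replicate 1 or 2, T15-2 DMSO replicate 1, or T15-2 erlotinib replicate 1 or 2.

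**Figure D5:**
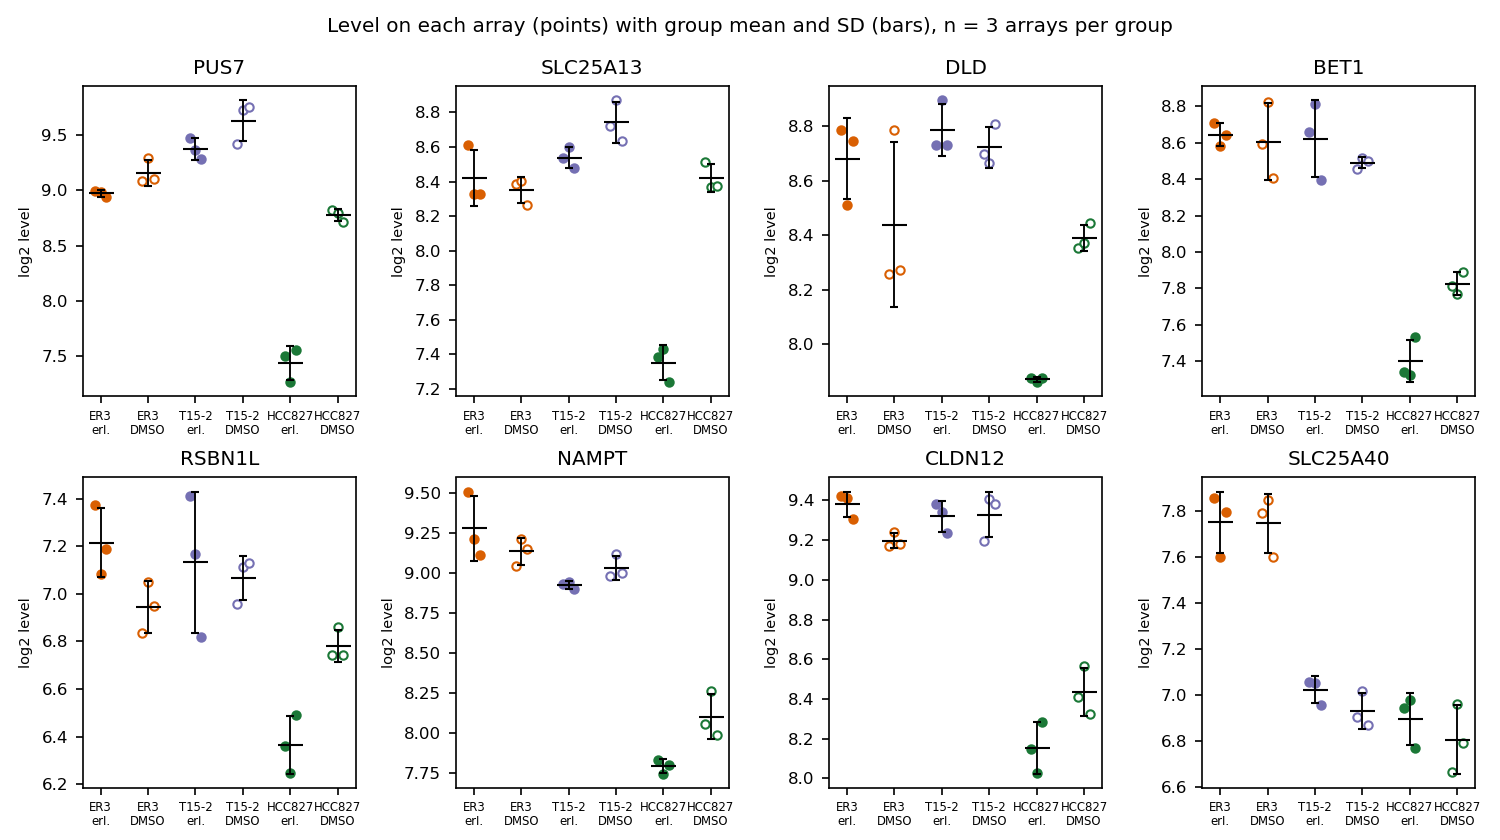
Log2 level of 8 members on each of the 3 arrays per group (points, filled with erlotinib and open with DMSO), with the group mean and SD (bars). PUS7, SLC25A13, DLD, BET1 and RSBN1L are lowest in HCC827 with erlotinib, NAMPT and CLDN12 are higher in both sublines than in HCC827 in both conditions, and SLC25A40 is higher in ER3 than in T15-2 and HCC827.

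RefSeq held 61 windows of 300 bases around a start for 46 of the 51 members, since some genes have several starts, and 5 short motifs were searched on both strands. CACGTG was in 5 of the 61 windows (8.2%; BRI3, GNAI1, PUS7, SLC25A13 and VPS50), against 7.26% of all 35116 windows. GGGCGG, the core of the site of SP1, was in 36 (59.0%, against 45.0%), TTCCGG, the core of the site of ETS factors, in 16 (26.2%, against 17.2%), and CCAAT in 21 (34.4%, against 34.6%). TGACGTCA, the site of CREB, was in 0 (against 1.85%). Of the 9 members that fell with erlotinib in HCC827 and had a window, 2 held CACGTG, 7 GGGCGG, 6 CCAAT, 1 TTCCGG and 0 TGACGTCA. BRI3, which holds CACGTG, rose. Short motifs such as GGGCGG are common in CpG-rich promoters, and a match is not evidence of binding.

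Besides SLC25A40 and DBF4, 4 pairs of genes had opposed windows that overlapped, and in 2 of these both genes were above background on every array. COG5, a subunit of the Golgi tethering complex, and DUS4L, a dihydrouridine synthase that is not on the list, share 150 bases. With erlotinib COG5 was 0.54 ± 0.12 and DUS4L 0.85 ± 0.09 above HCC827 in ER3, and 0.46 ± 0.12 and 0.84 ± 0.09 in T15-2. With DMSO they were at 0.74 ± 0.12 and 0.73 ± 0.09 in ER3, and at 0.49 ± 0.12 and 0.58 ± 0.09 in T15-2. PTCD1 and CPSF4, a subunit of the complex that cleaves and polyadenylates messenger RNA, share 244 bases. With erlotinib PTCD1 was at 0.53 ± 0.08 and CPSF4 at 0.39 ± 0.09 in ER3, and at 0.74 ± 0.08 and 0.34 ± 0.09 in T15-2. With DMSO they were at 0.17 ± 0.08 and 0.38 ± 0.09 in ER3, and at 0.41 ± 0.08 and 0.49 ± 0.09 in T15-2. All 4 genes were above HCC827 in all 4 comparisons. In ER3 a second CPSF4 probe lay at 0.16 with erlotinib and 0.72 with DMSO, and other COG5 probes lay at 0.88 and 0.69 with erlotinib. The difference within a pair therefore depends on the probe. The pairs of TMEM60 with PHTF2 and ARMC10 with FBXL13 are not compared, because PHTF2 was above background on no more than 1 of 3 arrays in any group and FBXL13 on 3 in ER3 with erlotinib and no more than 1 elsewhere.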

How the data were processed

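Biotin-labelled RNA was hybridised to Illumina expression BeadChips. The deposited table holds, per probe, an intensity on a linear scale and a detection p-value from BeadStudio, per the submitters' processing notes (version not given in the sources used here). Processed intensity values, also deposited by the authors, served as an alternative. In R 4.3.3, limma 3.58.1's neqc function (offset 16, with negative controls estimated from detection p) gave background-corrected, quantile-normalized log2 values from the deposited signals. The filter kept 19931 probes whose detection p was under 0.05 on 3 or more arrays of 18, genes were named through the platform annotation and RefSeq (GRCh38.p14), and the brightest probe stood for a gene (11820 genes). Genes were placed along chromosome 7 by RefSeq order.

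One limma model with 6 group means was fitted, with Benjamini-Hochberg adjustment per contrast. The model was run on simulated data, where full recovery was required only for changes larger than any called here among the members. Recovery at the sizes called is not given. Samples were grouped by their labels. Members and lists were chosen with earlier results of these data known. Values per array are given for the 6 members highest and 3 lowest on the mean of 4 differences from HCC827, for the largest called changes, and for paralogs; SLC25A40, SGCE, GNAI1 and SRI were added after their values were seen. Same-numbered arrays did not deviate together (45 pairs, correlations from -0.40 to 0.27, 7 over 0.1). The number of arrays limits the precision.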

Additional observations from a re-analysis of the deposited data

Results flagged for a closer look

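The responses to erlotinib of some members differed between a subline and HCC827, by the test of that difference. For ER3 minus HCC827 the difference was 1.15 for PUS7, 1.14 for SLC25A13, 0.81 for PEG10, 0.76 for DLD, 0.69 for RSBN1L, 0.57 for VPS50, 0.46 for CLDN12, 0.46 for BET1, 0.45 for NAMPT, 0.36 for PTCD1 and -0.58 for BRI3, on the log2 scale. For T15-2 minus HCC827 it was 1.08 for PUS7, 0.86 for SLC25A13, 0.58 for DLD, 0.56 for BET1 and 0.45 for TFPI2. Each is the line difference with erlotinib minus that with DMSO, and both were read when the members were chosen, so the counts support nothing about the list. The ER3 difference of BRI3 was -0.15 with median scaling over all probes. Groups of 3 arrays were not searched for arrays that stand apart.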

How the results depend on the processing

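No direction reversed under any alternative, and 13 of the 34 gene calls held in all of them: PUS7, SLC25A13, DLD, BET1, PEG10 and PTCD1 with erlotinib in HCC827, the response differences of PUS7, SLC25A13, DLD, RSBN1L and CLDN12 in ER3, and those of PUS7 and SLC25A13 in T15-2. The members' median differences from HCC827 in ER3 with erlotinib, T15-2 with erlotinib, ER3 with DMSO and T15-2 with DMSO were 0.28, 0.35, 0.25 and 0.32 both without background correction and with the authors' processed values, 0.42, 0.59, 0.048 and 0.18 with scaling to the median of all probes, and 0.42, 0.55, 0.38 and 0.42 with a detection p below 0.01 on all 3 arrays of a group. With scaling over all probes the median of all genes was 0.03, 0.10, -0.22 and -0.12 in the same comparisons, against -0.01, 0.01, -0.02 and 0.01 with quantile normalization; scaling over the kept probes, chosen after seeing the data, gave 0.51 in T15-2 with erlotinib. Without a detection filter the medians were 0.35 and 0.37 in ER3 and T15-2 with erlotinib and 0.25 in ER3 with DMSO, and with the mean of a gene's probes 0.29 in ER3 with DMSO. T15-2 minus ER3 with DMSO had 0.12 without background correction, with the authors' values and with scaling over the kept probes, and 0.22 with scaling over all probes; with erlotinib it had 0.10 with that scaling, 0.0060 without a filter, 0.097 with the stricter filter and 0.10 with the mean of probes.

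Leaving out each array moved the medians between 0.37 and 0.43 in ER3 and between 0.37 and 0.46 in T15-2 with erlotinib, between 0.32 and 0.35 in ER3 and between 0.33 and 0.39 in T15-2 with DMSO, and T15-2 minus ER3 between 0.00053 and 0.074 with erlotinib and between 0.093 and 0.19 with DMSO. The counts of called members ranged from 0 to 2 with erlotinib in ER3, 0 to 5 in T15-2, 8 to 14 in HCC827, 6 to 12 for the response difference in ER3 and 2 to 9 for that in T15-2. The count in ER3 was 2 without background correction or with the authors' values, 3 with the trend and robust settings, and 0 with scaling over the kept probes, without a filter, with the compared groups alone or with the replicate number as a block. With the compared groups alone 1 member was called in T15-2 and 7 in the ER3 response difference, and with scaling over all probes 9 in that of T15-2. The replicate block also ended the ER3 response calls of BET1 (adjusted p = 0.054) and PTCD1 (0.054). A block for the BeadChip could not be fitted, because the chip on which each array lay is not given in the sources used. The cause of these changes was not tested, other than that a fit of the compared groups alone has fewer samples.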

Other observations

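Members not described above also differed between the sublines and HCC827, as values with no test. VPS50 was 0.82 higher in ER3 and 0.78 in T15-2 with erlotinib, SYPL1, a vesicle membrane protein, 0.74 and 0.83, and PMPCB, a subunit of the peptidase that trims mitochondrial import signals, 0.48 and 0.58. A second VPS50 probe that passed gave 0.07 in ER3 and 0.26 in T15-2. Other SYPL1 probes that passed gave 0.31 and 0.47 in ER3 and 0.17 and 0.52 in T15-2. TRRAP, a scaffold of histone acetyltransferase complexes, was 0.22 above HCC827 in ER3 and 0.79 in T15-2 with DMSO. BAIAP2L1, which links membrane curvature to actin, was at 0.76 in ER3 and 0.18 in T15-2. Across the 51 members the differences with erlotinib and with DMSO correlated at 0.66 in ER3 and 0.74 in T15-2 (Pearson), and across all genes at 0.64 and 0.73. The members in each correlation share the arrays of the same 2 lines.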
